A study of Mus musculus with 6 samples.

Results

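The collagen genes of mouse dorsal skin were described here as 1 gene family. Members were the protein-coding genes whose symbol has the form Col, number, a, number and that had at least 10 counts over the 6 libraries. Of the 55487 genes deposited, 44 had such a symbol, and 42 of these reached the count minimum. Col10a1 (8 counts) and Col9a1 (5 counts) fell just below it, while Col25a1 and Col9a2 (19 counts each) and Col26a1 (27 counts) lay closest above it. The series concerns macrophages in hair regeneration driven by contact hypersensitivity. RNA of whole dorsal skin collected on day 2 was sequenced in 3 control libraries and in 3 libraries of skin treated with DPCP. This agent, diphenylcyclopropenone, is applied to skin to elicit contact allergy. Strain, age and sex are not given in the labels, nor is what the control skin received. They also leave unsaid whether replicates are separate animals, so p-values rest on the spread among these libraries, part of which may be technical.

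Collagens are trimers whose alpha chains, each the product of 1 gene, wind into a triple helix inside the cell before they are trimmed and assembled outside it. Fibrillar collagens form the tensile fibrils of the dermis, and the FACIT collagens (fibril-associated collagens with interrupted triple helices) sit on the surface of those fibrils. Type IV collagens form the sheet-like network of basement membranes, type VII forms the fibrils that anchor the epidermal basement membrane to the dermis, and the transmembrane collagens are held in the membrane of the cell that makes them. In skin most fibrillar chains come from fibroblasts, while keratinocytes make types VII and XVII.

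The libraries held 28346992 to 33468828 counts on genes in the control group and 31609336 to 38846787 in the DPCP group. At these depths 3 counts, the most that a count of 0 allows, equal 0.0772 to 0.106 CPM (counts per 1000000 counts on genes; counting error only). Read pairs were not counted as 1, so both reads of a fragment can count, and the limits given for counts of 0 may be too low. The labelled tissue showed in its markers. Basal keratinocyte markers (Krt5, Krt14, Krt15, Itga6, Itgb4, Trp63) summed to 12551 to 14278 CPM in control and 22805 to 27591 CPM in DPCP, and fibroblast markers to 5109 to 6109 and 4318 to 5205 CPM. The difference in the basal keratinocyte sum lay mostly in Krt14, with means of 4893 CPM in control and 16979.5 CPM in DPCP. Not every marker of that set was higher in DPCP. Reads annotated as ribosomal RNA made up 0.167% to 0.285% of counts in control, 2.46% in DPCP replicate 2, and 0.42% and 0.489% in the other DPCP libraries. Control replicate 2 stood apart from the other controls: its collagen total was 0.772% of counts against 0.51% and 0.514%, and it was the highest control for 29 of the 36 members tested. Values without it are given below for the members whose call or sign it changed.

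Of the 42 members, 36 passed the expression filter and were tested. With edgeR's quasi-likelihood test and Benjamini-Hochberg adjustment over all 18259 genes tested, 13 members were higher in DPCP skin and 11 lower at an adjusted p under 0.05, and 12 were not called. These 24 calls are 66.7% of the tested members, beside 46.1% of all genes tested (22.8% higher and 23.3% lower). The median log2 fold change was 0.05 over the members and −0.01 over all genes, while the median of its absolute size was 0.81 over the members and 0.41 over all genes. The CPM ranges of the groups did not overlap for 11 members that were higher and 12 that were lower, against 24.3% and 33.2% of all genes (57.4% in either direction). DESeq2 called 13 members higher and 10 lower, with 18.2% and 16.7% of its tested genes called. Leaving out control replicate 2 gave 17 members higher and 7 lower in edgeR, and leaving out DPCP replicate 2 gave 11 higher and 7 lower. Counts of called genes in each collagen class and in the other gene lists below also stand against these shares of all genes. In bulk tissue, fewer cells of a type and less RNA per cell cannot be told apart.

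**Figure D1:**
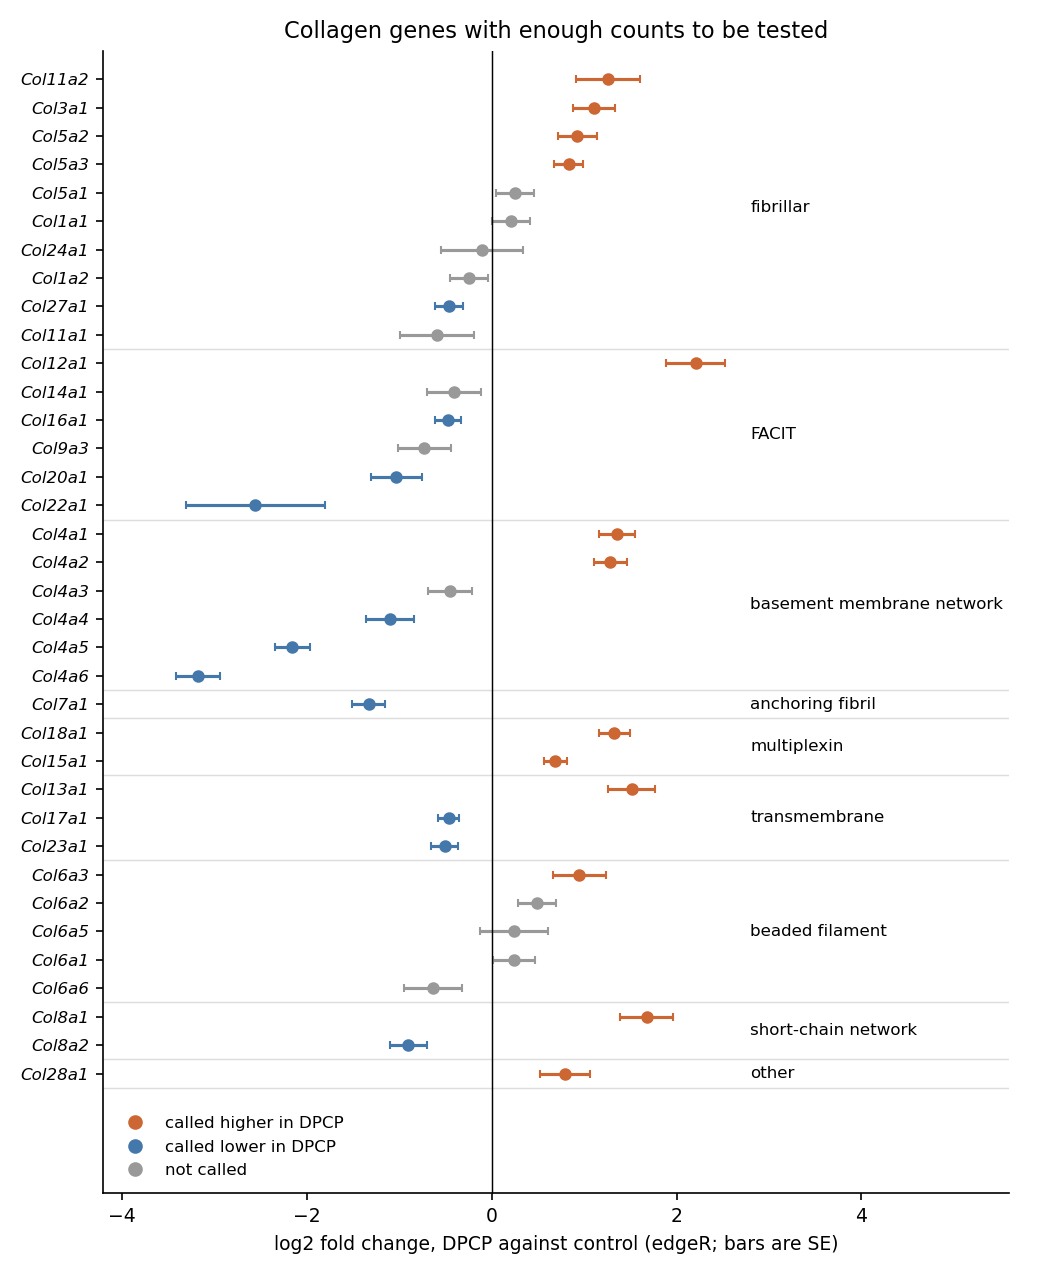
Log2 fold change of each tested collagen gene (DPCP over control, x axis) with its standard error, grouped by class; orange points were called higher and blue points lower at an edgeR adjusted p of 0.05, and grey points were not called. Changes ran from −3.18 for Col4a6 to 2.21 for Col12a1, and every class with more than 2 tested members except the beaded filaments held members called higher and members called lower.

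Among the 11 fibrillar genes 10 were tested: Col3a1, Col5a2, Col5a3 and Col11a2 rose, Col27a1 fell, and Col1a1, Col1a2, Col5a1, Col11a1 and Col24a1 did not pass the test. Calls fell on 50% of the tested genes of this class, near the 46.1% of all genes tested. The median log2 fold change of the class was 0.23. Col3a1 (ENSMUSG00000026043, chromosome 1, 45311538 to 45349706, plus strand, in GRCm38 as all positions here) encodes the only chain of type III collagen, which forms the fine fibrils of skin and vessel walls. Its level was 1165, 1778 and 856 CPM in the controls and 2364, 2760.4 and 2590.4 CPM in the DPCP libraries. All DPCP libraries were above the highest control, and the log2 fold change was 1.11 ± 0.23 (SE; edgeR adjusted p = 0.00475). The genes of type I collagen, the main fibril of the dermis, did not show such a shift. Col1a1 stood at 401, 697 and 373 CPM in control and 560.0, 509.6 and 542 CPM in DPCP skin, and Col1a2 at 766, 1235 and 669.8 and 767, 731 and 632 CPM. In both genes control replicate 2 was above every DPCP library. The log2 fold change was 0.21 ± 0.21 for Col1a1 (edgeR adjusted p = 0.437) and −0.25 ± 0.21 for Col1a2 (edgeR adjusted p = 0.356). Without control replicate 2 these values were 0.55 (edgeR adjusted p = 0.0042) and 0.06 (edgeR adjusted p = 0.715), so the call on Col1a1 and the sign of Col1a2 rested on that library.

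Type V collagen co-assembles with type I and limits the width of its fibrils. Its Col5a2 chain rose from 144, 224 and 118 CPM to 253, 299 and 322 CPM (log2 fold change 0.93 ± 0.21, edgeR adjusted p = 0.00745). The less abundant Col5a3 chain rose from 38.3, 58.1 and 38.5 CPM to 72.3, 71.3 and 84.0 CPM (log2 fold change 0.83 ± 0.16, edgeR adjusted p = 0.00312). For both chains the groups were apart. The partner chain Col5a1 read 85.2, 154 and 88.3 CPM in control and 121, 128 and 119.5 CPM in DPCP skin, and its log2 fold change of 0.25 ± 0.20 did not pass the edgeR test (adjusted p = 0.342). Again 1 control was the highest of all libraries, and without control replicate 2 the value was 0.58 (edgeR adjusted p = 0.00403).

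The remaining fibrillar genes, best known from cartilage and bone, were scarce. Col11a2 read 0.353, 0.797 and 0.777 CPM in control and 1.44, 1.67 and 1.30 CPM in DPCP skin (10, 23 and 26 against 50, 65 and 41 counts), a log2 fold change of 1.26 ± 0.35 (edgeR adjusted p = 0.017; 0.0589 without DPCP replicate 2). Col27a1 fell from 6.70, 8.84 and 7.53 CPM to 5.13, 5.20 and 5.57 CPM. Its groups were apart, but its log2 fold change of −0.46 ± 0.15 (edgeR adjusted p = 0.036) missed the threshold in 7 of the 13 alternatives, DESeq2 among them (adjusted p = 0.0571). The edgeR adjusted p for Col27a1 was 0.131 and 0.0843 without control replicates 2 and 3, and 0.091, 0.0762 and 0.0636 without DPCP replicates 1, 2 and 3, and 0.0664 with no count filter. Col11a1 and Col24a1 were at 2.06 ± 0.865 and 0.597 ± 0.0534 CPM in control (SD, n = 3), with log2 fold changes of −0.59 ± 0.40 and −0.11 ± 0.44 and edgeR adjusted p of 0.256 and 0.857. Col2a1, the main collagen of cartilage, had 4, 6 and 8 counts in control and 3, 9 and 13 in DPCP skin and was not tested. Of 5 cartilage markers only Comp passed the filter (log2 fold change −1.16 ± 0.44, edgeR adjusted p = 0.057), and the 5 summed to 1.64 to 2.32 CPM in control and 0.747 to 1.30 CPM in DPCP skin.

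Markers of fibroblasts, the cells that make most of these chains, did not move together. Of 10 fibroblast markers 1 rose, 4 fell and 5 did not pass the test, and their summed CPM overlapped between groups. Pdgfra was the marker that rose (log2 fold change 0.89 ± 0.24), and Dpp4, Dpt and Pi16 were among those that fell (−1.12 ± 0.15, −1.22 ± 0.20 and −0.57 ± 0.12). Leukocyte markers rose in 3 of 5 cases (Cxcr2 3.41 ± 0.42, Itgam 1.42 ± 0.23 and Cd68 1.54 ± 0.25), with a summed level of 200.2 to 342 CPM in control and 493 to 731 CPM in DPCP skin. Of 5 adipocyte markers Fabp4 rose (0.74 ± 0.13), Adipoq fell (−0.82 ± 0.18) and 3 were not called. The part of these cells in the fibrillar changes was not tested.

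The type IV genes split by chain. The Col4a1 and Col4a2 chains form the alpha1-alpha1-alpha2 network found in most basement membranes, including those of vessels, and both genes rose. Col4a5 and Col4a6 form the alpha5-alpha5-alpha6 network of the epidermal basement membrane, Col4a3 and Col4a4 belong to the alpha3-alpha4-alpha5 network best known from the kidney, and Col4a4, Col4a5 and Col4a6 fell while Col4a3 was not called. Each pair lies head to head on its chromosome. In the deposited annotation (GRCm38) Col4a1 (chromosome 8, 11198423 to 11312826, minus strand) and Col4a2 (chromosome 8, 11312805 to 11449287, plus strand) overlap by 22 bases, and 71 bases separate Col4a4 from Col4a3 on chromosome 1. On chromosome X, Col4a6 (141165403 to 141474076, minus strand) and Col4a5 (141475385 to 141689234, plus strand) are 1308 bases apart.

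The start regions of Col4a1 and Col4a2, which rose together, and of Col4a5 and Col4a6, which fell together, are shown because the genes of each pair start head to head. Those of Col4a3 and Col4a4, also head to head but without a shared call, are not shown. Sequences are from RefSeq (GRCm38.p6), 250 bases before to 50 after the start of each gene, in the direction of the gene. Capitals mark matches to a CCAAT box (letters CCAAT), a GC box (letters GGGCGG), the TATA box (letters TATAAA) or an AP-1 site (letters TGANTCA), each searched on both strands, with overlaps allowed. The windows are chr8:11312777-11313076, minus strand for Col4a1, chr8:11312555-11312854, plus strand for Col4a2, chrX:141475169-141475468, plus strand for Col4a5, and chrX:141474027-141474326, minus strand for Col4a6.
Col4a1: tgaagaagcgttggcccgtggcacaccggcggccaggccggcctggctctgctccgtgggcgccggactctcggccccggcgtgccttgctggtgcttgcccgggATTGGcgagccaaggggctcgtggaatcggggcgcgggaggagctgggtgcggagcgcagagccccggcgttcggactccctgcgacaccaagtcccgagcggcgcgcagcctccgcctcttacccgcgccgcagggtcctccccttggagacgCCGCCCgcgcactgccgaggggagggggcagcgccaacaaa
Col4a2: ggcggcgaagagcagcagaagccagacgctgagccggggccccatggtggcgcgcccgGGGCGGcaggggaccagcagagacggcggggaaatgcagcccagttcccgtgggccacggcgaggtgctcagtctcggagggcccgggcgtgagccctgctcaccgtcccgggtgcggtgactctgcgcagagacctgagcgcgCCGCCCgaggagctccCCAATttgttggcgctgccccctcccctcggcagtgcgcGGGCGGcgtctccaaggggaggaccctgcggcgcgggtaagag
Col4a5: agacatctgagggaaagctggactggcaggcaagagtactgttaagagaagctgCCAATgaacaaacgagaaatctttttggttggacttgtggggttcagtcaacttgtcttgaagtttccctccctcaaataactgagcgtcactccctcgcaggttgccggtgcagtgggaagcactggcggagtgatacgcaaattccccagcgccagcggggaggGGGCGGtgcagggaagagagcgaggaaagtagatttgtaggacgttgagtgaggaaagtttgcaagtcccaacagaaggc
Col4a6: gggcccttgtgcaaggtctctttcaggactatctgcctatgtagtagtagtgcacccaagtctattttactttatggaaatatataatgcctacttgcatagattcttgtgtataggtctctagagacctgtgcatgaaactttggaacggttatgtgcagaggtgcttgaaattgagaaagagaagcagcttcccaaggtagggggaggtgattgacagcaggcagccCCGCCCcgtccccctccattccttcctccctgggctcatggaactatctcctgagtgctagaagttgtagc
The RefSeq starts of Col4a1 and Col4a2 lie 21 bases apart and their windows share 78 bases, while those of Col4a6 and Col4a5 lie 1343 bases apart and share none. The windows of Col4a1, Col4a2 and Col4a5 held a CCAAT box and a GC box, and that of Col4a6 held a GC box. Over all 32851 windows of this length in the table, 37.4% held a CCAAT box, 35.7% a GC box, 13.6% a TATA box and 7.81% an AP-1 site. RefSeq gave 35 windows for 33 of the 42 members, of which 34.3%, 65.7%, 11.4% and 2.86% held these motifs. A match describes letters, not a bound site.

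Col4a1 read 140.4, 238 and 182 CPM in control and 392, 461 and 507 CPM in DPCP skin, and Col4a2 88.9, 137 and 116 and 219, 269 and 301 CPM. Every DPCP library exceeded every control for both genes. The log2 fold changes were close, 1.36 ± 0.19 for Col4a1 and 1.28 ± 0.18 for Col4a2 (edgeR adjusted p = 0.000688 and 0.000654). Col4a5 moved the other way, from 32.8, 35.3 and 39.1 CPM to 10.3, 6.69 and 5.95 CPM. Col4a6 fell further, from 33.5, 38.2 and 43.3 CPM to 5.85, 2.83 and 3.48 CPM. All 3 DPCP libraries were below the lowest control for both genes, with DPCP replicate 1 the highest of the DPCP group. The log2 fold change was −2.16 ± 0.19 for Col4a5 and −3.18 ± 0.24 for Col4a6 (edgeR adjusted p = 7.49e-05 and 3.57e-05), and the latter was the steepest fall among the tested members.

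Col4a4 fell from 12.4, 18.5 and 12.4 CPM to 9.22, 4.71 and 5.31 CPM, again with the groups apart and DPCP replicate 1 nearest to the controls (log2 fold change −1.10 ± 0.26, edgeR adjusted p = 0.00883). Col4a3 read 4.37, 7.14 and 3.79 CPM in control and 3.98, 3.27 and 3.35 CPM in DPCP skin. Its groups overlapped and its log2 fold change of −0.45 ± 0.24 did not pass the edgeR test (adjusted p = 0.159; log2 fold change −0.13 without control replicate 2). Col4a3 shares 563 exon bases with the gene C430014B12Rik, so reads there could not be assigned to 1 of them in a count without strand. Endothelial markers moved in the same direction as Col4a1 and Col4a2: 4 of 6 rose, among them Plvap, Pecam1 and Cdh5 (log2 fold changes 1.62 ± 0.12, 1.25 ± 0.12 and 1.11 ± 0.12), and Tek fell (−0.40 ± 0.11). They summed to 247 to 305 CPM in control and 454 to 502 CPM in DPCP skin. Basal keratinocyte markers were divided, with 3 of 6 higher (Krt14, Itgb4 and Itga6, at 1.87 ± 0.12, 0.98 ± 0.13 and 0.73 ± 0.11). Krt15 fell, as Col4a5 and Col4a6 did (−1.77 ± 0.16), and Krt5 and Trp63 were not called (0.34 ± 0.14 and −0.16 ± 0.10). The part of either cell type in these changes was not tested.

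**Figure D2:**
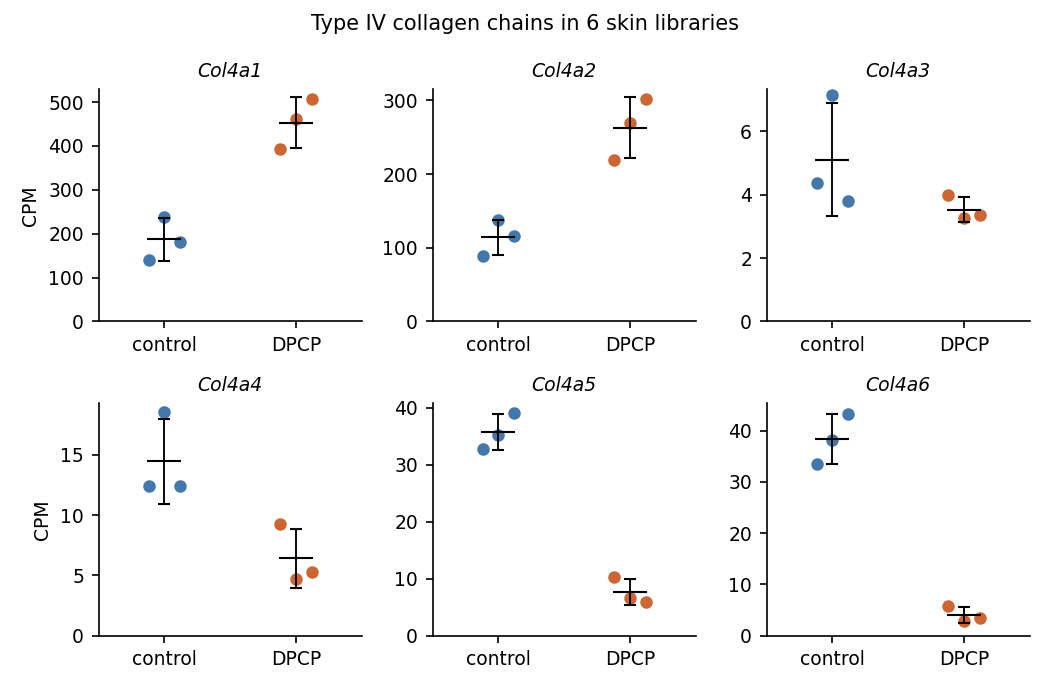
CPM of the 6 type IV collagen genes (linear axes from 0, 1 panel per gene), with 1 point per library in replicate order and bars for the mean and SD of each group. Col4a1 and Col4a2 are higher in each DPCP library than in any control, Col4a4, Col4a5 and Col4a6 are lower, and Col4a3 overlaps.

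At the junction of epidermis and dermis, Col7a1 and Col17a1 both fell. Col7a1 (ENSMUSG00000025650, chromosome 9, 108953586 to 108984875, plus strand) encodes the anchoring fibril chain. It read 64.9, 95.6 and 105 CPM in control and 36.0, 28.3 and 36.3 CPM in DPCP skin. The highest DPCP library was well below the lowest control, and the log2 fold change was −1.33 ± 0.18 (edgeR adjusted p = 0.000592). Col17a1 (ENSMUSG00000025064, chromosome 19, 47646344 to 47692094, minus strand) encodes type XVII collagen, a transmembrane component of hemidesmosomes, the contacts that tie basal keratinocytes to the basement membrane. It read 1274, 1551 and 1590.3 CPM in control and 1062, 952 and 1026 CPM in DPCP skin. The groups were apart, with a log2 fold change of −0.47 ± 0.11 (edgeR adjusted p = 0.0105). Of 8 other hemidesmosome and anchoring genes, 5 rose, 2 fell and 1 was not called, where 22.8% of all genes rose and 23.3% fell. Those that rose included Lama3, a laminin chain of the epidermal basement membrane (log2 fold change 1.07 ± 0.14), and Itgb4, the integrin chain of hemidesmosomes (0.98 ± 0.13). The cytoskeletal linkers Dst and Plec fell (−0.76 ± 0.09 and −0.37 ± 0.12).

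Col17a1 is 1 of 4 transmembrane collagen genes, of which 3 were tested and all 3 were called, 1 higher and 2 lower. Col23a1, which encodes another transmembrane chain, fell from 39.9, 57.0 and 57.3 CPM to 35.9, 31.0 and 36.5 CPM. Its groups were apart, and its log2 fold change was −0.51 ± 0.15 (edgeR adjusted p = 0.021, but 0.0634 without DPCP replicate 2, 0.0822 without control replicate 2 and 0.074 without control replicate 3). Col13a1, whose product sits at cell adhesions, rose from a low level. It read 0.882, 1.18 and 0.657 CPM in control and 2.62, 2.34 and 2.37 CPM in DPCP skin, a log2 fold change of 1.51 ± 0.26 (edgeR adjusted p = 0.00175), with each DPCP library above each control. Col25a1, known mainly from neurons, had 5, 3 and 3 counts in control and 2, 0 and 6 in DPCP skin and was not tested.

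The multiplexins, collagens XV and XVIII, lie in or beside basement membranes, and both genes rose. Col18a1 (ENSMUSG00000001435, chromosome 10, 77052178 to 77166548, minus strand), whose product carries the endostatin fragment, rose from 68.2, 102.2 and 83.2 CPM to 174, 193 and 236 CPM (log2 fold change 1.33 ± 0.17, edgeR adjusted p = 0.000399). Col15a1 rose from 41.3, 57.3 and 43.2 CPM to 75.2, 68.7 and 73.0 CPM (log2 fold change 0.69 ± 0.12, edgeR adjusted p = 0.00211). In both genes the groups were apart. Other basement membrane genes were divided: of 11 laminin, nidogen and related genes, 3 rose, 4 fell and 4 were not called. Nid2 (nidogen 2) and Hspg2 (perlecan) rose, with log2 fold changes of 1.595 ± 0.19 and 0.64 ± 0.17. The laminin chains Lama2 and Lama5 and the proteoglycan gene Agrn fell, with log2 fold changes of −0.92 ± 0.19, −0.42 ± 0.13 and −0.56 ± 0.12.

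Of 8 FACIT genes 6 were tested: Col12a1 rose, Col16a1, Col20a1 and Col22a1 fell, and Col14a1 and Col9a3 were not called. The median log2 fold change of the class was −0.60. Col12a1 and Col14a1 encode related chains that bind the surface of type I fibrils. Col12a1 (ENSMUSG00000032332, chromosome 9, 79598991 to 79718831, minus strand) showed the steepest rise among the tested members. It read 30.5, 53.8 and 39.4 CPM in control and 109, 170.3 and 261 CPM in DPCP skin, with the groups far apart and DPCP replicate 3 the highest (log2 fold change 2.21 ± 0.32, edgeR adjusted p = 0.000812). Col14a1 read 141, 210.1 and 102.005 CPM in control and 125, 128 and 68.7 CPM in DPCP skin. Its groups overlapped, and its log2 fold change of −0.41 ± 0.29 did not pass the edgeR test (adjusted p = 0.279; log2 fold change −0.096 without control replicate 2).

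Col16a1 encodes a minor fibril-associated chain of the upper dermis. It fell from 69.3, 106 and 84.8 CPM to 62.3, 55.9 and 59.8 CPM (log2 fold change −0.47 ± 0.14, edgeR adjusted p = 0.0236), with the groups apart. The call was lost when 1 of 4 libraries was left out, with edgeR adjusted p of 0.0637 and 0.0613 without DPCP replicates 2 and 3, and 0.0789 and 0.0558 without control replicates 2 and 3. Col20a1 fell from 3.42, 3.78 and 3.41 CPM to 1.96, 0.952 and 2.06 CPM (log2 fold change −1.03 ± 0.28, edgeR adjusted p = 0.0153), and its groups were also apart. Col22a1, known from the junction of muscle and tendon, had 11, 42 and 19 counts in control and 2, 2 and 9 counts in DPCP skin. On few reads, its log2 fold change was −2.56 ± 0.75 (edgeR adjusted p = 0.0211), and the call was lost without DPCP replicate 1, DPCP replicate 2 or control replicate 2 (edgeR adjusted p = 0.0616, 0.0723 and 0.0918). Skeletal muscle markers fell in 6 of 6 cases (Tnnt3 −1.63 ± 0.16, Ckm −1.68 ± 0.18 and Myl1 −1.11 ± 0.17 had the smallest p), from a summed 10849 to 13452 CPM in control to 2735 to 5488 CPM in DPCP skin, and their part in the fall of Col22a1 was not tested.

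The FACIT chains best known from cartilage, and Col19a1, were scarce. Col9a3 read 1.38, 1.25 and 1.11 CPM in control and 0.778, 0.515 and 0.854 CPM in DPCP skin (log2 fold change −0.73 ± 0.29, edgeR adjusted p = 0.0675), so that its groups were apart without a call. Col19a1 had 8, 9 and 7 counts in the controls and 1, 2 and 2 in the DPCP libraries, and Col9a2 had 4, 2 and 1 and 8, 4 and 0. Neither passed the filter, and the count of 0 for Col9a2 allows up to 0.0949 CPM. All control libraries held more Col19a1 counts than any DPCP library, but at this depth no test was made.

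Type VI collagen forms beaded microfilaments in the matrix around cells, and of its 6 genes 5 were tested and only Col6a3 was called by edgeR. Col6a3 read 133, 278 and 135 CPM in control and 276, 299.6 and 422 CPM in DPCP skin. Control replicate 2 was above DPCP replicate 1, so the groups overlapped, and without it the log2 fold change was 1.39 (edgeR adjusted p = 0.00193). The log2 fold change was 0.95 ± 0.29 (edgeR adjusted p = 0.0254), and the adjusted p was 0.0586 with DESeq2, 0.0822 without DPCP replicate 3, 0.079 without control replicate 1 and 0.0796 without control replicate 3. The chains Col6a1 and Col6a2 assemble with Col6a3. Col6a1 read 153, 303 and 187 CPM in control and 222, 221 and 277 CPM in DPCP skin, and Col6a2 109, 197 and 119 and 182, 166 and 217 CPM. For both genes control replicate 2 lay within or above the DPCP range. Their log2 fold changes were 0.24 ± 0.22 and 0.49 ± 0.21 (edgeR adjusted p = 0.409 and 0.0838). Without control replicate 2 they were 0.57 and 0.80 (edgeR adjusted p = 0.0221 and 0.00358), and Col6a2 was also called by DESeq2 (adjusted p = 0.0353).

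Col6a5 and Col6a6 encode chains that can take the place of alpha3. Their log2 fold changes were 0.24 ± 0.37 and −0.63 ± 0.32 (edgeR adjusted p = 0.617 and 0.133). Col6a4 had 4, 1 and 0 counts in control and 10, 5 and 14 in DPCP skin and was not tested; its count of 0 allows up to 0.0896 CPM.

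The short-chain network genes Col8a1 and Col8a2, chains of a collagen known from vessel walls and the cornea, moved in opposite directions. Col8a1 rose from 5.36, 7.52 and 6.57 CPM to 11.6, 23.5 and 23.8 CPM (log2 fold change 1.68 ± 0.29, edgeR adjusted p = 0.00181). Col8a2 fell from 19.9, 30.8 and 20.3 CPM to 14.7, 9.27 and 12.1 CPM (log2 fold change −0.90 ± 0.20, edgeR adjusted p = 0.00699). The groups were apart for both, and among the DPCP libraries replicate 1 was nearest to the controls. Markers of pericytes and smooth muscle were divided, with Mcam, Rgs5 and Acta2 higher (0.98 ± 0.12, 0.41 ± 0.09 and 0.37 ± 0.12) and Myh11 lower (−0.60 ± 0.15) of 6, and their part here was not tested. Col28a1, known from the surroundings of peripheral nerves, read 4.41, 7.38 and 3.91 CPM in control and 6.37, 10.01 and 9.24 CPM in DPCP skin. Control replicate 2 exceeded DPCP replicate 1. Its log2 fold change of 0.79 ± 0.27 had an edgeR adjusted p of 0.041, and the call was lost with library totals alone (0.0589), with upper-quartile factors (0.0517) and in 4 of the 6 fits that left out a library (adjusted p = 0.134, 0.0944, 0.117 and 0.123 without DPCP replicates 2 and 3 and control replicates 1 and 3). Of 5 Schwann cell markers none rose and 3 fell, among them Mbp and Ngfr (−0.68 ± 0.13 and −0.64 ± 0.17). Col26a1 had 3, 4 and 2 counts in control and 5, 6 and 7 in DPCP skin and was not tested.

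Levels were compared between genes only per length, as RPKM (CPM per kilobase of exon). Col17a1 had the highest mean RPKM of the family in control skin, 245 ± 28.7 (SD, n = 3), ahead of Col3a1 at 129 ± 47.8. In DPCP skin the order was the opposite, with Col3a1 at 262 ± 20.2 and Col17a1 at 169 ± 9.35. With these exon lengths Col17a1 was above Col3a1 in each control library and below it in each DPCP library. Col1a1 (74.7 ± 27.3 in control, 81.9 ± 3.90 in DPCP) and Col1a2 (71.7 ± 24.4 and 57.1 ± 5.61) came next in control, where their difference was smaller than their spread. Col4a1 held position 6 in control (25.1 ± 6.59 RPKM) and position 4 in DPCP skin (60.7 ± 7.75 RPKM), between Col1a1 and Col1a2. Dividing by the longest transcript in place of all exon bases left Col17a1 first by the mean in control and Col3a1 first in DPCP skin, but in control replicate 2 Col3a1 was then above Col17a1. It also put Col1a2 at position 3 and Col1a1 at position 4 in both groups, and Col4a1 at position 7 in control and 5 in DPCP skin.

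**Figure D3:**
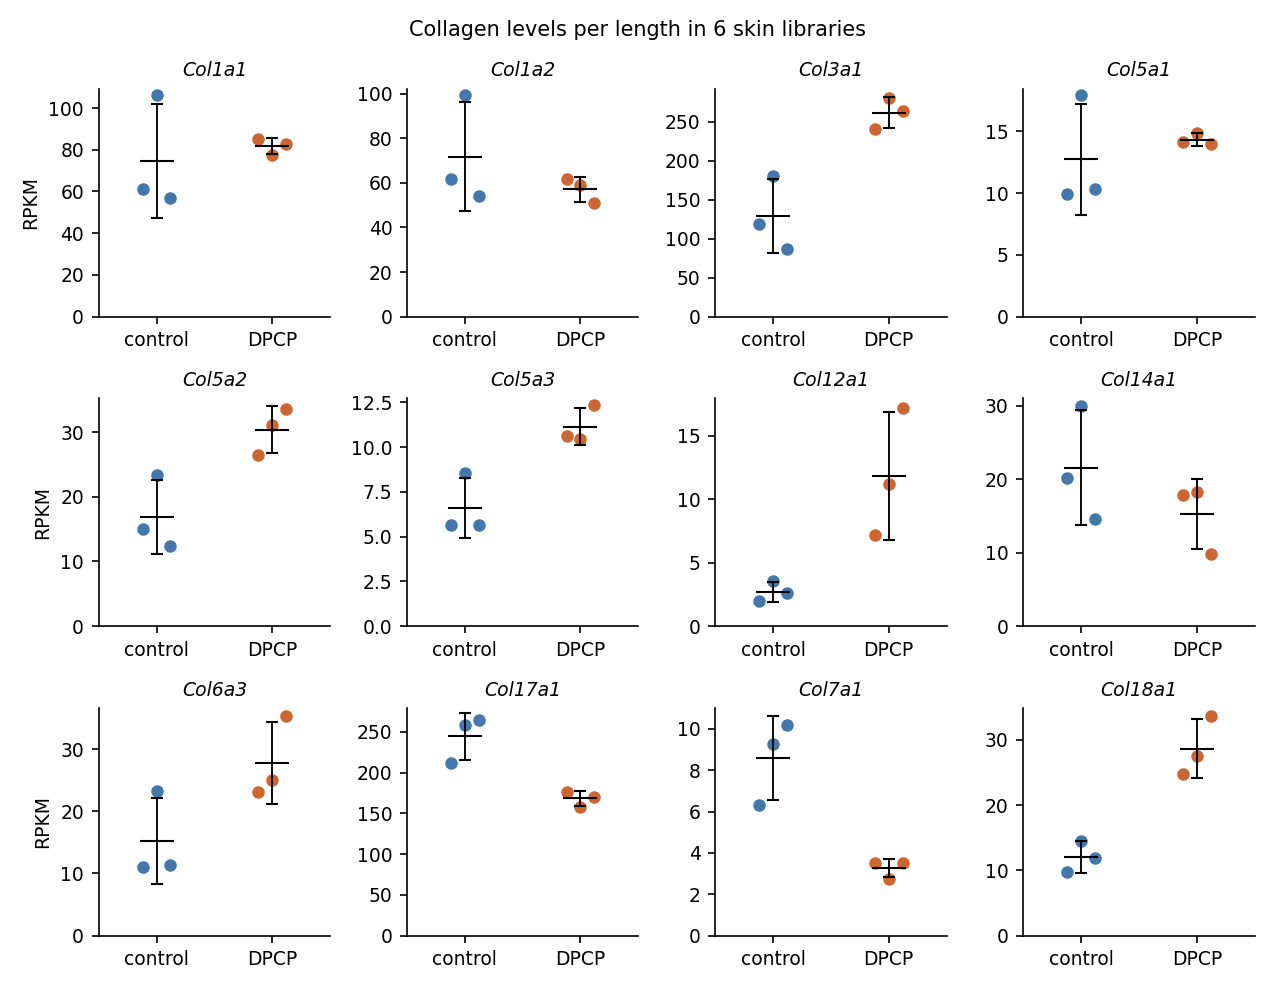
RPKM of 12 collagen genes (linear axes from 0 that differ between panels), with 1 point per library and bars for the mean and SD of each group. Control replicate 2, the middle blue point, is the highest control for Col1a1, Col1a2 and Col3a1, while the DPCP points of Col3a1, Col12a1 and Col18a1 lie above the controls and those of Col17a1 and Col7a1 below.

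Chains that share a trimer were set against each other as ratios of RPKM within each library, which do not depend on the library total. Col3a1 and Col1a1, chains of types III and I that do not share a trimer, were compared in the same way. With 3 against 3 libraries the exact permutation test (two-sided) cannot go below p = 0.1, so a separation of the groups could not pass 0.05, and the 7 ratios had adjusted values of 0.117 where the groups were apart. A type I trimer usually carries more Col1a1 than Col1a2 chains. The Col1a1 to Col1a2 ratio was 0.992, 1.07 and 1.05 in control and 1.38, 1.32 and 1.62 in DPCP skin. It was higher in each DPCP library, including against control replicate 2. The Col3a1 to Col1a1 ratio was 1.94, 1.71 and 1.53 in control and 2.82, 3.62 and 3.19 in DPCP skin, also with no overlap. The Col5a1 to Col5a2 ratio was 0.755 ± 0.0876 in control and lower, 0.477 ± 0.0604, in DPCP skin (SD, n = 3 in each group; exact permutation p = 0.1). The absolute levels of the ratios, here and below, depended on the length used. With the longest transcripts the control and DPCP means were 0.495 and 0.687 for Col1a1 to Col1a2 and 2.75 and 5.12 for Col3a1 to Col1a1. They were 0.531 and 0.335 for Col5a1 to Col5a2, 0.952 and 1.98 for Col4a5 to Col4a6, and 1.71 and 1.45 for Col6a1 to Col6a2.

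The Col4a1 to Col4a2 ratio overlapped between groups, at 1.40, 1.54 and 1.40 in control and 1.59, 1.52 and 1.49 in DPCP skin (exact permutation p = 0.3). These chains are joined in 1 trimer. The Col4a5 to Col4a6 ratio was 1.16, 1.10 and 1.07 in control and 2.09, 2.81 and 2.03 in DPCP skin, with the groups apart. Against the chains of the other network, chosen after the values were seen and so given with no test, Col4a5 to Col4a1 was 0.221 ± 0.0499 in control and 0.0194 ± 0.00855 in DPCP skin, and Col4a6 to Col4a2 was 0.285 ± 0.0468 and 0.0135 ± 0.00754. In type VI collagen the Col6a3 to Col6a1 ratio was 0.306 ± 0.0377 in control and 0.503 ± 0.0517 in DPCP skin, and Col6a1 to Col6a2 was 2.86 ± 0.171 and 2.43 ± 0.104 (SD, n = 3; exact permutation p = 0.1 for each).

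**Figure D4:**
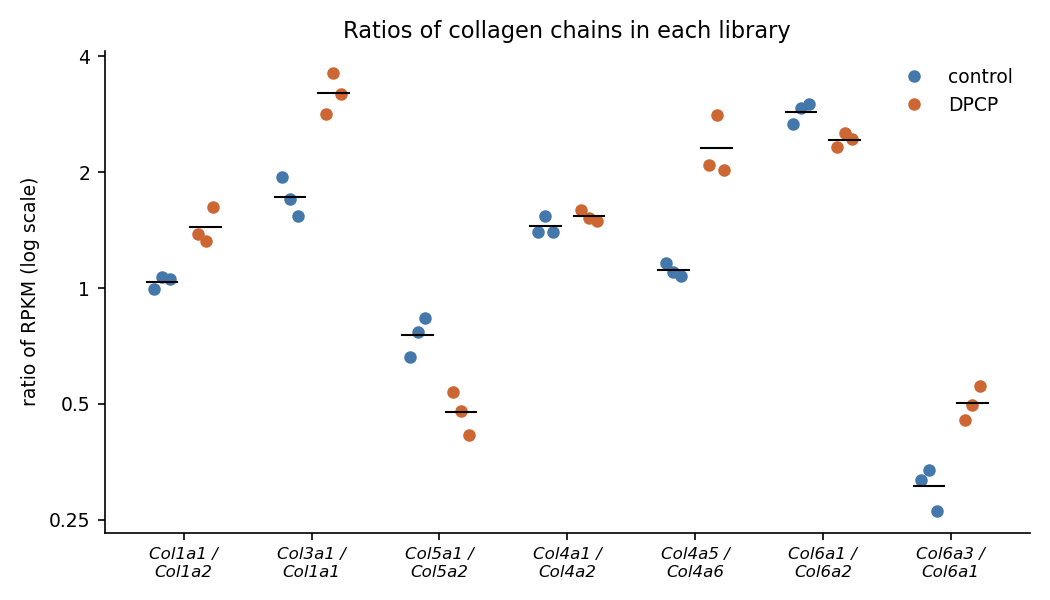
Ratio of RPKM between chains of related collagens in each library (log axis), with control points in blue, DPCP points in orange and a line at each mean. The Col1a1 to Col1a2, Col3a1 to Col1a1 and Col4a5 to Col4a6 ratios are higher in each DPCP library than in any control, and Col4a1 to Col4a2 overlaps.

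Summed over its members, each class was compared in CPM with the exact permutation test (two-sided, 10 totals, smallest p 0.1). The fibrillar total was 2611, 4159 and 2154 CPM in control and 4146, 4507 and 4300.3 CPM in DPCP skin (exact permutation p = 0.2), where only control replicate 2 reached the DPCP range. Its log2 difference was 0.59, and 0.86 without that library. The means of this total were 2975 CPM in control and 4318 CPM in DPCP skin. Most of that difference lay in Col3a1, with means of 1266 and 2572 CPM. The basement membrane network total was 312, 475 and 396 and 640.1, 747 and 827 CPM (exact permutation p = 0.1, adjusted 0.25), and the transmembrane total, mostly Col17a1, 1315, 1609 and 1648 and 1101, 985 and 1065 CPM (exact permutation p = 0.1, adjusted 0.25). Both sets of groups were apart, in opposite directions. The basement membrane network total was mostly Col4a1 and Col4a2. In that class 3 of 6 genes were called lower, and the median log2 fold change was −0.78. The FACIT total was 247, 377 and 231 and 299.7, 356 and 393 CPM and overlapped (exact permutation p = 0.3). All collagens together made 5096, 7719 and 5143 CPM in control and 7196, 7623 and 7899.9 CPM in DPCP skin (exact permutation p = 0.3, adjusted 0.333). The other 5 totals had p from 0.1 to 0.9. As shares of summed collagen RPKM, fibrillar chains were 39.6% ± 6.08 in control and 49.3% ± 2.01 in DPCP skin (SD), transmembrane chains 33.4% ± 6.21 and 18.9% ± 1.52, basement membrane chains 7.02% ± 0.764 and 11.1% ± 0.976, and FACIT chains 4.90% ± 0.393 and 3.93% ± 0.174. These shares are parts of 1 whole, so a rise in one lowers the others, and a share does not show the same change in each member of its class. Their levels also depend on the length used, here all exon bases. With the longest transcript the control mean of Col1a2 was 166 RPKM in place of 71.7, and that of Col17a1 263 in place of 245. Shares by that length were not computed.

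**Figure D5:**
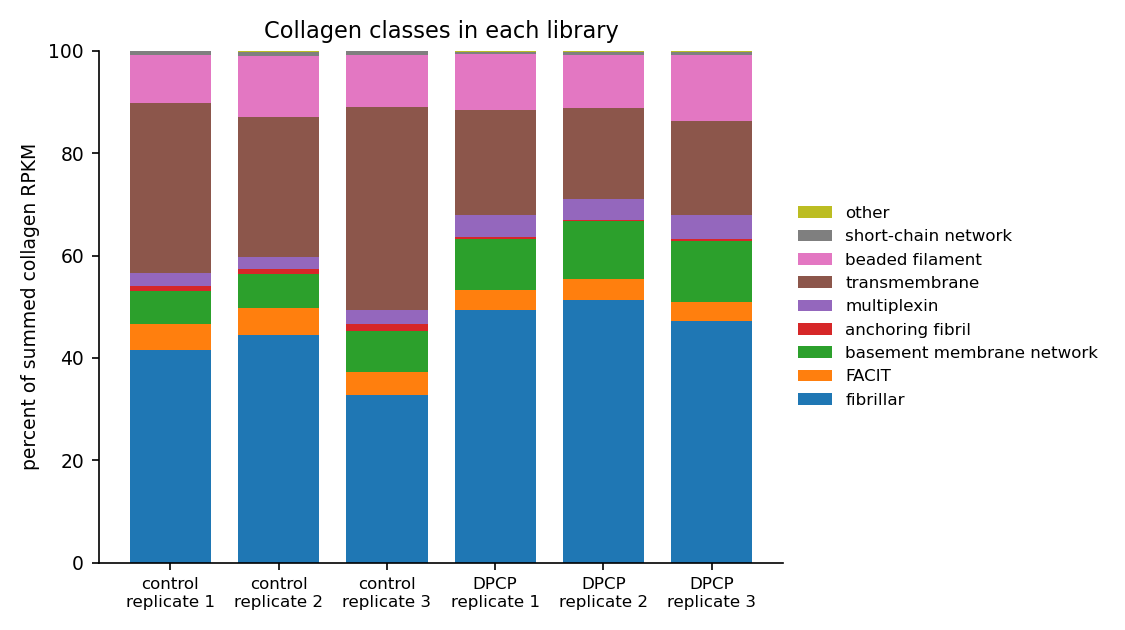
Share of summed collagen RPKM (by all exon bases) taken by each collagen class in each library (stacked bars, percent). The levels of the shares depend on this choice of length. The transmembrane share averages 33.4% ± 6.21 in control and 18.9% ± 1.52 in DPCP skin, and the fibrillar share 39.6% ± 6.08 and 49.3% ± 2.01 (SD).

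The genes that make, cut, bind and decorate collagens were read from lists assembled for this family. Of 20 genes for hydroxylation and folding in the endoplasmic reticulum, 10 rose, 2 fell and 8 were not called, where 22.8% of all genes rose and 23.3% fell. P4hb, the shared subunit of the prolyl 4-hydroxylases, read 471, 475 and 478 CPM in control and 905, 988 and 969 CPM in DPCP skin (log2 fold change 1.08 ± 0.09, edgeR adjusted p = 6.63e-05). Every DPCP library was far above the controls. The prolyl isomerase gene Fkbp10 and the lysyl hydroxylase gene Plod3 also rose, with log2 fold changes of 1.38 ± 0.18 and 0.90 ± 0.12. The prolyl 3-hydroxylase gene P3h2 and the transcription factor gene Creb3l1 fell (−0.43 ± 0.09 and −0.43 ± 0.13).

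Outside the cell, 7 of 10 genes for propeptide processing were tested, and 1 rose and 2 fell. Adamts14, a procollagen N-proteinase, and Pcolce2, an enhancer of C-propeptide removal, fell (−2.11 ± 0.24 and −1.53 ± 0.19), while Bmp1, the C-proteinase, rose (0.35 ± 0.12). Of 5 cross-linking oxidases only Loxl3 was called, and it rose (0.94 ± 0.27). Of 9 genes for degradation and uptake 4 rose and none fell. Mmp8, the neutrophil collagenase, read 0, 0.277 and 0.1195 CPM in control and 3.83, 13.2 and 6.36 CPM in DPCP skin (log2 fold change 5.93 ± 0.74, edgeR adjusted p = 0.000386). Its DPCP values spread widely but all lay above the controls, of which the first had no count, allowing up to 0.106 CPM. The gelatinase gene Mmp9 and the collagenase gene Mmp13 rose by log2 fold changes of 1.30 ± 0.24 and 3.62 ± 0.69. Without DPCP replicate 2, the highest library for both collagenases, the values were 5.28 for Mmp8 and 2.36 for Mmp13, and without control replicate 2 that of Mmp8 was 6.93.

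Of 10 collagen receptor genes 9 were tested, and 4 rose and 1 fell. Adgrg1, a receptor for type III collagen, and the integrin chains Itgb1 and Itga1 rose (1.15 ± 0.16, 0.84 ± 0.13 and 0.71 ± 0.13), and the kinase receptor gene Ddr1 fell (−0.47 ± 0.11). Of 12 genes for proteoglycans and adaptors on fibrils, 4 fell, 1 rose and 7 were not called. Fmod (fibromodulin), Aspn (asporin) and Ogn (osteoglycin) fell (−1.45 ± 0.26, −1.01 ± 0.20 and −1.17 ± 0.30), and Bgn (biglycan) rose (1.002 ± 0.16). All genes of these lists said to rise or fall passed an edgeR adjusted p of 0.05 over all genes, of which 46.1% did.

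Some of the calls on list genes were lost when 1 library was left out, with the edgeR adjusted p that follows. Among the genes that make or process collagens these were Creb3l1 without DPCP replicates 1 or 2 or control replicates 2 or 3 (0.072 to 0.119), Bmp1 without DPCP replicates 2 or 3 or control replicates 1 or 3 (0.0662 to 0.117) and Loxl3 without DPCP replicate 2 or control replicates 1 or 3 (0.0702 to 0.0768). Among the genes of the junction and of basement membranes they were Plec without DPCP replicates 1 or 2 or control replicates 2 or 3 (0.0507 to 0.0942), Lama5 without DPCP replicate 2 or control replicates 1, 2 or 3 (0.0543 to 0.0947) and Hspg2 without DPCP replicate 3 or control replicate 3 (0.0501 in each case). Among the markers they were Pdgfra without DPCP replicate 2 or control replicates 1 or 3 (0.0506 to 0.0533), Tek without DPCP replicate 3 or control replicate 2 (0.0569 to 0.0662), Acta2 without DPCP replicates 2 or 3 or control replicates 1 or 3 (0.0796 to 0.0974) and Ngfr without control replicate 3 (0.0526).

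Counting used no strand, so reads in exon bases that lie in more than 1 gene could not be told apart. Of the 42 members 12 share at least 1 exon base with another gene. The shared bases number 563 in Col4a3, 289 in Col6a4, 234 in Col9a3, 212 in Col5a1 and 141 in Col3a1. They number 14 to 79 in Col4a1, Col4a2, Col6a6, Col7a1, Col15a1, Col20a1 and Col22a1. Among the other members, a smaller set, 17 were called, 9 higher and 8 lower, an alternative chosen after seeing the data. The genes of the surrounding lists that share exon bases and are named above are Plod3, Fkbp10, P3h2, Loxl3, Itga1, Ddr1, Aspn, Dst, Plec, Lama3, Lama2, Nid2, Pdgfra, Pi16, Dpp4, Krt5, Itgam, Ckm and Mcam, so their values are less certain.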

How the data were processed

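Polyadenylated RNA of dorsal skin was extracted with TRIzol and made into stranded paired-end libraries, per the labels' protocols. The deposited table holds whole-number read counts for each gene, which the authors made with featureCounts 1.6.2 on the Ensembl GRCm38 annotation, release 102, with no option for strand, read pairs or multi-mapping reads, per the file headers. Other tools named, per the submitters' processing notes, are DESeq2 1.34.0, HISAT2 2.2.1, StringTie 2.2.1 and Trimmomatic 0.36. Symbols were matched for 55141 of 55487 identifiers through GENCODE M21, and 0 columns of values were left unmapped.

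From the counts, edgeR 4.0.16 (R 4.3.3) was run with filterByExpr, TMM factors and the quasi-likelihood test, with Benjamini-Hochberg adjustment over all 18259 genes and a threshold of 0.05. The standard error is the absolute log2 fold change before edgeR's shrinkage, over the root of F. The log2 fold changes given are those after shrinkage. CPM used the total of each library, and RPKM divided CPM by the exon length in the deposited table. Class totals and chain ratios were tested with exact permutation tests (scipy 1.17.1). Alternatives were other scalings, DESeq2 1.42.0, other filters, a replicate block and leaving out each library. The edgeR step was tested on simulated data. No pair of libraries of a group looked like 1 library deposited again: the smallest chi-square per gene was 25.87. All called members are named; of each other list, up to 3 genes with the smallest p in its main direction and up to 2 in the other; 2 genes that this rule names are not reported here. Members and lists were chosen with earlier results of these data known.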

Additional observations from a re-analysis of the deposited data

How the results depend on the processing

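Of the 24 called members, 17 kept their call and direction in each of the 13 alternatives that tested them, and 2 of the 12 uncalled members kept their direction and stayed uncalled in each. The count of members called lower, 11, fell to 7 without DPCP replicate 2 and to 7 without control replicate 2; over the fits that left out 1 library it ranged from 7 to 11, and members called higher from 11 to 17. The log2 fold change of Col6a5 reversed to −0.0335 without control replicate 3 (range over left-out libraries −0.0335 to 0.75), that of Col1a2 to 0.0627 without control replicate 2 (−0.40 to 0.0627), and that of Col24a1 to 0.26 without DPCP replicate 1 (−0.37 to 0.26), each uncalled in edgeR in the full fit; the cause was not tested. With a replicate block 26 members were called (14 higher, 12 lower), adding Col14a1 (edgeR adjusted p = 0.019) and Col6a2 (0.0495). Same-numbered libraries deviated together only weakly (correlations 0.0455, 0.0265 and 0.112), so the numbers were not taken as pairs. Over the other gene lists and the marker lists together, 74 genes were called, and 60 to 89 across the alternatives. Library totals alone shifted the median of all genes to −0.09. Leaving out members that share exon bases, chosen after seeing the data, left 17 calls in a smaller set of members. Class totals kept their direction under each scaling and each left-out library, with 1 exception. The short-chain network total (log2 difference 0.086) was at −0.030 without control replicate 1 and −0.012 without DPCP replicate 3. Chain ratios, which library scaling cannot change, kept their direction under each left-out library. With 3 libraries a group no total or ratio could pass 0.05.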
